A study of Mus musculus with 6 samples.

Results

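The ephrin-A ligands Efna1, Efna2, Efna3, Efna4 and Efna5 and the EphA receptors Epha3, Epha4, Epha5, Epha7 and Epha10 were followed through RNA sequencing of mouse ventral midbrain cultures. They were chosen by gene name, and each of the 10 was found in the count tables, which list 42396 genes. The tested group held 3 libraries of cells given a lentivirus with the hairpin pll3.7-shRmstI against circRmst, a circular RNA of the gene Rmst, and is called the knockdown. The control group held 3 libraries of cells given the same kind of virus with the scramble hairpin pll3.7-Scr2. Cells of both groups were primary cells of wild-type (WT) mouse embryos at embryonic day 14, plated at 150000 per well, infected at a multiplicity of 5 on the day of plating and lysed after 3 days in vitro. The labels call the cell type dopamine neurons, and markers of other cells, given below, were present as well. Several wells were harvested for each condition. The study asked how circRmst knockdown acts on gene expression, beside neuron shape and migration.

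Ephrin-As are ligands held at the cell surface by a lipid anchor, and EphA receptors are tyrosine kinases that span the membrane of the cell they touch. Contact signals both ways, forward through the receptor and in reverse through the ligand, and often makes a growing axon turn away. In the midbrain, ephrin-A2 and ephrin-A5 are known for the graded levels by which retinal axons find their place in the dorsal midbrain, and ephrin-A5 and EphA5 have been studied in the path of dopamine axons towards the striatum.

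No member differed between the groups past the threshold. Epha5 was the most abundant per length and Efna1 was close to the limit of detection. In edgeR's quasi-likelihood test 0 of the 10 members had an adjusted p under 0.05, beside 0 of 17439 genes tested, or 0%. At an unadjusted p under 0.05 there were also 0 members, beside 191 genes, or 1.10% of those tested. DESeq2 called 1 gene, which was no member, and limma voom called 0. The 5 ligands had a median log2 fold change (knockdown over control) of 0.02 and the 5 receptors one of -0.04, beside a median of -0.006026 over all tested genes. Of the members, 5 lay above and 5 below the control, beside 8390 above and 9049 below of all tested genes.

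The libraries held between 27248934 and 43646521 counts, and the deepest and the shallowest were knockdown replicate 1 and control replicate 3. Rmst, the host gene of circRmst, was at 105, 97.1 and 115 CPM (counts scaled by library depth) in knockdown replicates 1, 2 and 3, against 115, 117 and 124 CPM in control replicates 1, 2 and 3. A gene-level count cannot separate circRmst from linear Rmst, so it does not check the knockdown. All 12 dopamine neuron markers averaged 1 CPM or more, and their summed level was 544 to 647 CPM in knockdown libraries and 567 to 667 CPM in control libraries. General neuronal markers summed to 5446 to 6699 CPM in knockdown libraries and 5966 to 6340 CPM in control libraries. Other cells were present too. Markers of astrocytes and radial glia summed to 1917 to 2109 CPM in the knockdown and 1757 to 2143 CPM in the control, and GABAergic markers to 939 to 1063 CPM in the knockdown and 925 to 1066 CPM in the control. Oligodendrocyte lineage markers summed to 290 to 371 CPM in the knockdown and 299 to 469 CPM in the control. Markers of dividing cells summed to 232.5 to 263 CPM in the knockdown and 233 to 338 CPM in the control. Those of meningeal fibroblasts and mural cells summed to 124 to 193 CPM in the knockdown and 129.5 to 180 CPM in the control. Markers of the hindbrain and isthmus summed to 106 to 161 CPM in the knockdown and 107 to 158 CPM in the control, mostly from the serotonin neuron genes Tph2 and Slc6a4, and 3 of the 8 averaged 1 CPM or more. Forebrain markers summed to 25.4 to 34.7 CPM in the knockdown and 26.9 to 34.3 CPM in the control (2 of 8 averaged 1 CPM or more), mostly from Six3 and Emx2. Microglial markers summed to 14.8 to 15.7 CPM in the knockdown and 16.5 to 18.5 CPM in the control (3 of 7), and endothelial markers to 17.1 to 21.0 CPM in the knockdown and 16.9 to 20.8 CPM in the control (2 of 6). The microglial gene Aif1, the endothelial gene Cldn5 and the hindbrain gene Egr2 had no count in any library but a deposited FPKM above 0 in each, so a count of 0 here does not show absence. In such bulk RNA, fewer cells that make a transcript and less transcript per cell cannot be told apart.

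Promoter windows are shown for 4 members: Efna2 and Efna5, the ligands of the midbrain gradients, and Epha5 and Efna1, which mark the top and the bottom of the range of levels. Each window runs from 250 bases before to 50 bases after an annotated start, in RefSeq's GRCm38.p6. All 10 members matched this table, with 13 windows. Capitals mark any match, on either strand, to the GC box GGGCGG, the CCAAT box, the TATA box motif TATAAA or the homeodomain core TAATTA. On the opposite strand the GC box reads CCGCCC. No motif overlapped another in the windows shown, which are written 5′ to 3′ on the strand of the gene.
Efna2, chr10:80179232-80179531, plus strand: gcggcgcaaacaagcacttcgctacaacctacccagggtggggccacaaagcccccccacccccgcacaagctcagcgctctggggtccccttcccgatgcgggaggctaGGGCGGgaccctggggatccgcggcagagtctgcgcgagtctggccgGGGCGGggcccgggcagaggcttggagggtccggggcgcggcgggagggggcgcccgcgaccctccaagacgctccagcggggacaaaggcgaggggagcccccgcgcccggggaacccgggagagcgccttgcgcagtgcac
Efna5, chr17:62881268-62881567, minus strand: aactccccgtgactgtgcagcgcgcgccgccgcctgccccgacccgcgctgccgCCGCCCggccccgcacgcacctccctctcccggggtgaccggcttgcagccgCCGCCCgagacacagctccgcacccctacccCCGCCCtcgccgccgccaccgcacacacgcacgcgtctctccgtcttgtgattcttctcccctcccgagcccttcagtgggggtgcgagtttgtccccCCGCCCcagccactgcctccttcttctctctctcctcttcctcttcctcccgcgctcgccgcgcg
Epha5, chr5:84417333-84417632, minus strand: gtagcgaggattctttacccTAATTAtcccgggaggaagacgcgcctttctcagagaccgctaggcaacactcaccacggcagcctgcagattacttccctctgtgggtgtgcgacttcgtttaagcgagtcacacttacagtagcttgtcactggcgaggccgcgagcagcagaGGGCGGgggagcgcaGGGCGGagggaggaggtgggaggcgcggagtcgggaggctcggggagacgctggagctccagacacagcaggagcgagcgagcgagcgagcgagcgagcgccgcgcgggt
Efna1, chr3:89280902-89281201, minus strand: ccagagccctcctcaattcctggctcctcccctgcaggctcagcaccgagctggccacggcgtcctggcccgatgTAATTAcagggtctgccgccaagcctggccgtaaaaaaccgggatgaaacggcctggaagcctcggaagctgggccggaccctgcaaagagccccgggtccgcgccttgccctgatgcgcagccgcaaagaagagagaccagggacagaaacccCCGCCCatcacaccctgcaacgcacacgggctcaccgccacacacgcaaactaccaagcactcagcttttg

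All 13 windows of the members were richer in G and C than the median RefSeq window (52.7% over 32817 windows), from 55.7% at Efna4 to 74.7% at Efna2. Only 3.91% of all windows had a higher GC content than that of Efna2, and 5.46% one higher than that of Efna5. The GC box stood in 11 of the 13 windows, which belong to 8 members, and in 35.6% of all windows. CCAAT stood in 6 windows of 5 members and in 37.4% of all windows. TATAAA stood in 0 of the 13 windows and in 13.6% of all. TAATTA stood in the printed windows of Efna1 and Epha5 and in 5.30% of all. The printed windows of Epha5 and Efna1 therefore had nearly the same GC content, 64.3% and 63.7%. Each held at least 1 GC box and a TAATTA. The genes lay at opposite ends of the levels given next, and the part of these motifs in the levels was not tested. A second window of Efna1, not printed, had a GC content of 63.3%, with 2 GC boxes and no TAATTA.

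Levels were compared between genes only in deposited FPKM (fragments scaled to transcript length and library depth), which takes length into account. Over the 6 libraries Epha5 had a median of 16.7 FPKM (14.5 to 20.2) and was above every other member in 6 of 6 libraries. Epha7 followed at 9.21 FPKM (8.76 to 12.1) and Epha4 at 9.51 FPKM (8.56 to 10.3). These 2 receptors swapped places between libraries, with Epha7 above Epha4 in 4 of 6. Efna3 was the highest ligand, at a median of 7.07 FPKM (6.36 to 7.48), and lay below Epha4 in 6 of 6 libraries. Below it came Efna2 at 6.40 FPKM (4.45 to 8.02), Efna5 at 5.33 FPKM (3.98 to 6.09), Epha10 at 4.85 FPKM (4.56 to 5.77) and Epha3 at 4.90 FPKM (3.596 to 5.24). The ranges of these neighbours overlapped, and each was above the next by mean level in only 3 or 4 of 6 libraries. Efna4 stood apart at 1.14 FPKM (0.938 to 1.43), and Efna1 was lowest at 0.135 FPKM (0.0327 to 0.242).

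Among the ligands, Efna2, Efna3 and Efna5 together made up most of the ephrin-A message. Efna3 held 34.5 ± 3.48% of the summed ligand FPKM in the knockdown and 37.1 ± 3.52% in the control (SD, n = 3 each). Efna2 held 31.7 ± 5.59% in the knockdown and 31.0 ± 4.95% in the control. Efna5 held 27.0 ± 5.95% in the knockdown and 25.7 ± 0.929% in the control, so its share was spread more widely over the knockdown libraries, from 20.9% to 32.8%. Of the summed FPKM of all 9 EphA receptors, Epha5 held 31.2 ± 1.41% in the knockdown and 30.1 ± 2.05% in the control. Epha4 and Epha7 came next, and Epha1 and Epha2, receptors best known from epithelia, held under 1% in every library. The receptors' summed FPKM was 2.83 ± 0.557 times that of the ligands in the knockdown and 2.77 ± 0.270 times in the control. In each of these shares the difference between the groups was smaller than the SD within at least 1 of them.

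**Figure D1:**
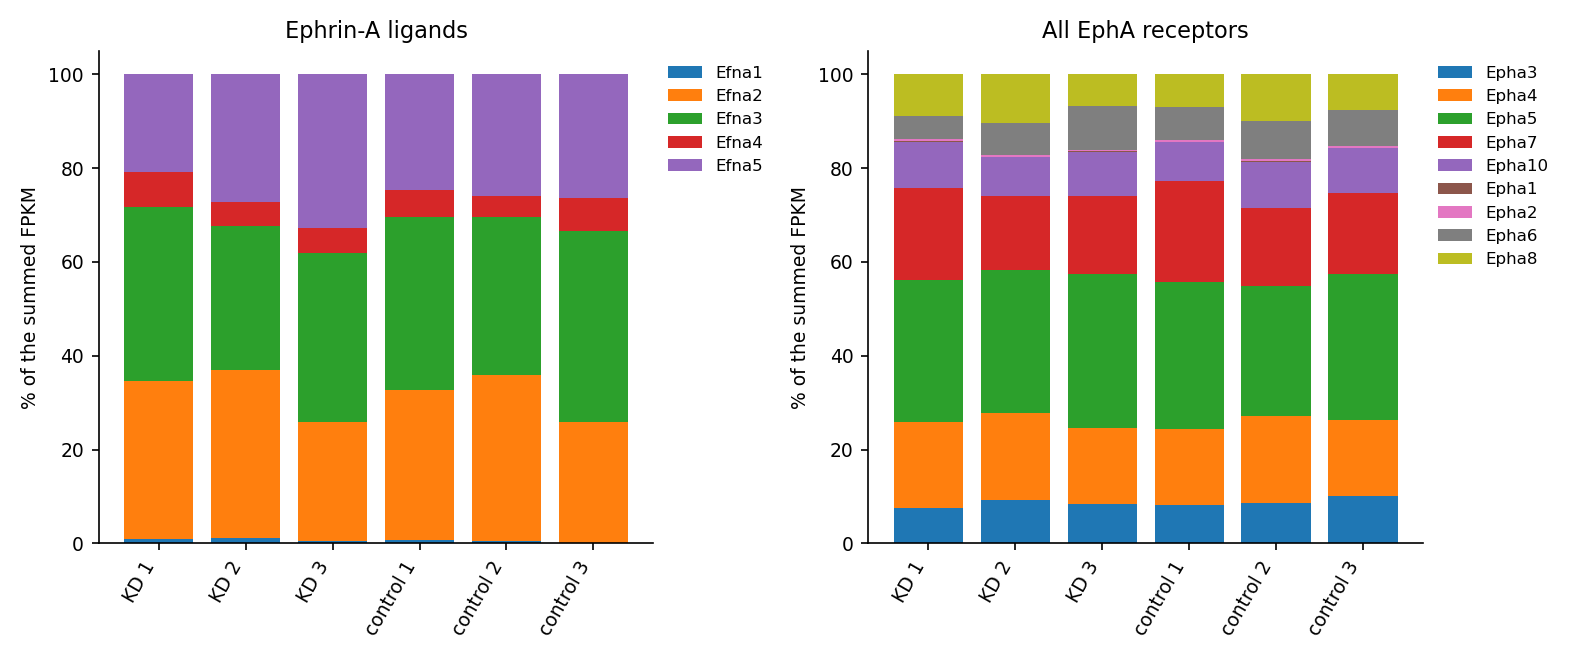
Stacked bars give each gene's share (%) of the summed FPKM of the 5 ephrin-A ligands (left) and of all 9 EphA receptors (right), with 1 bar for each library, knockdown left of control. Efna3, Efna2 and Efna5 filled most of the ligand bar, and Epha5 took between 27.7% and 32.9% of the receptor bar in every library.

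Efna2, on chromosome 10 from 80179482 to 80190010 (GRCm38), varied most among the well expressed ligands, and it did so in the same way in both groups. It was at 22.7, 27.2 and 16.3 CPM in knockdown replicates 1, 2 and 3, against 22.3, 28.7 and 16.2 CPM in control replicates 1, 2 and 3. Replicate 2 was highest and replicate 3 lowest in each group, and the groups overlapped over nearly their whole range. The means were 22.1 ± 5.48 CPM in the knockdown and 22.4 ± 6.23 CPM in the control (SD, n = 3 each). On the log2 scale knockdown over control came to -0.03 ± 0.22 (SE; 95% interval -0.50 to 0.45; edgeR, unadjusted p = 0.909, adjusted p = 1.00). Across the 6 libraries Efna2 spanned 0.82 log2 units, and 13.99% of the 14501 genes averaging 1 CPM or more spanned a wider range. Efna2 lies on the chromosome of Rmst, 11.9 Mb away.

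The summed level of dorsal midbrain markers had the order of Efna2 in both groups. The 9 listed genes together came to 225, 334 and 158 CPM in knockdown replicates 1, 2 and 3, against 280, 355 and 134 CPM in control replicates 1, 2 and 3. Pax7, a transcription factor gene of the dorsal midbrain, was at 20.0, 33.3 and 16.6 CPM in the knockdown and 22.7, 37.2 and 14.8 CPM in the control. Tfap2b, another transcription factor gene of that region, was at 61.7, 141 and 57.8 CPM in the knockdown and 76.9, 154 and 47.3 CPM in the control. Of the 9 dorsal markers, 8 were lowest in replicate 3 of both groups, and 5 had the full order of Efna2 in both. Zic1 lacked the full order, with 39.4, 16.1 and 2.08 CPM in the knockdown and 42.8, 15.3 and 2.19 CPM in the control, highest in replicate 1. Pax3 was lowest in replicate 2 of both groups, unlike Efna2. It was at 3.42, 1.83 and 2.17 CPM in the knockdown and 3.95, 1.895 and 1.94 CPM in the control. Tfap2d and Meis2 had the order of Efna2 in the knockdown only. Among all genes averaging 1 CPM or more, 10.7% were lowest in replicate 3 of both groups and 2.92% had the full order of Efna2. The summed glutamatergic markers had that order as well. They came to 147, 195 and 145 CPM in the knockdown and 151, 184 and 130 CPM in the control. All 3 glutamatergic genes averaging 1 CPM or more were highest in replicate 2 of both groups, but only 1 had the full order. Of the 7 GABAergic markers, 4 were highest in replicate 2 of both groups and 0 had the full order. For comparison, 14.55% of all genes averaging 1 CPM or more were highest in replicate 2 of both groups. The summed level of the dopamine neuron markers was highest in replicate 3 of both groups, at 647 CPM in the knockdown and 667 CPM in the control, as were 7 of the 12 genes taken singly. The share of all genes highest in replicate 3 of both groups was not counted, so this only describes these markers. The part of regional makeup in the level of Efna2 was not tested. The 3 genes most like Efna2 over the 6 libraries, among 11800 genes averaging 5 CPM or more, were Eif2ak3 (Pearson's r of log2 CPM 0.993), Mab21l1 (0.991) and Syvn1 (0.989). With 6 libraries of the same tissue, which differ in depth, and so many genes searched, such values are a description of these libraries.

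**Figure D2:**
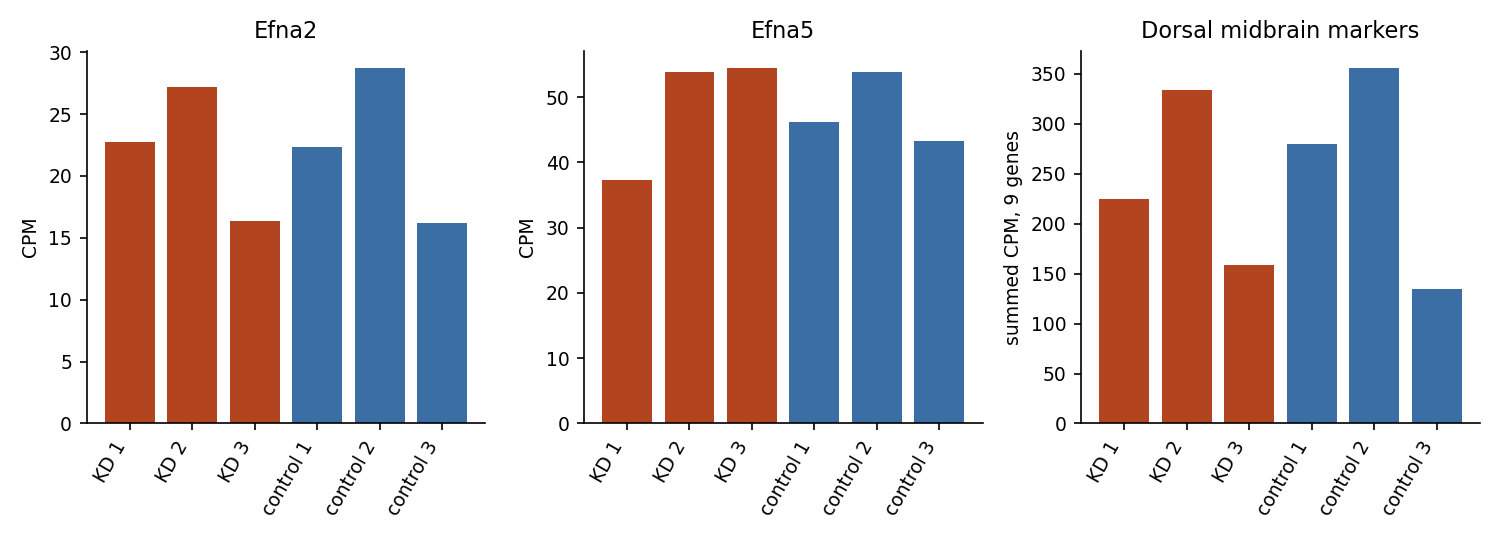
Bars give CPM of Efna2 (left) and Efna5 (middle) and the summed CPM of 9 dorsal midbrain markers (right) in each library, with knockdown libraries left of control libraries. Efna2 and the dorsal markers were highest in replicate 2 and lowest in replicate 3 of both groups. Efna5 had that pattern in the control only. Its highest library was knockdown replicate 3, at 54.4 CPM, and its lowest was knockdown replicate 1, at 37.4 CPM.

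Efna5, on chromosome 17 from 62602957 to 62881317, had the order of Efna2 in the control but not in the knockdown. It was at 37.4, 53.8 and 54.4 CPM in knockdown replicates 1, 2 and 3, against 46.2, 53.8 and 43.3 CPM in control replicates 1, 2 and 3. The lowest and the highest library were both knockdown libraries, so the control lay inside the range of the knockdown. The means were 48.5 ± 9.67 CPM in the knockdown and 47.8 ± 5.44 CPM in the control (SD, n = 3 each). On the log2 scale the difference was 0.02 ± 0.15 (SE; 95% interval -0.31 to 0.36; edgeR, unadjusted p = 0.889, adjusted p = 1.00). The balance of the gradient ligands also differed between libraries. Efna2 FPKM over Efna5 FPKM was 1.61, 1.32 and 0.774 in knockdown replicates 1, 2 and 3, against 1.30, 1.36 and 0.968 in control replicates 1, 2 and 3, below 1 in replicate 3 of both groups.

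Efna3, Efna4 and Efna1 lie side by side on the minus strand of chromosome 3, within 66.3 kb. Efna3 (89313899 to 89322939) was the steadiest member, with 28.9, 26.8 and 26.9 CPM in knockdown replicates 1, 2 and 3, against 29.1, 30.2 and 28.9 CPM in control replicates 1, 2 and 3. Every knockdown library was below every control library, but by less than 1% at the closest pair. The means were 27.5 ± 1.18 CPM in the knockdown and 29.4 ± 0.711 CPM in the control (SD, n = 3 each). Its log2 fold change came to -0.10 ± 0.10 (SE; edgeR, unadjusted p = 0.362, adjusted p = 1.00). With DESeq2-type size factors or with library totals alone the groups of Efna3 overlapped, while with upper quartile scaling and in deposited FPKM they did not. Its range over the 6 libraries was 0.18 log2 units, and 94.8% of genes averaging 1 CPM or more had a wider one. The antisense gene Gm15998 shares 344 exon bases with Efna3 but had at most 12 counts in a library.

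Its neighbour Efna4 (89333393 to 89338028) was lower in counts, with 171, 102 and 123 counts in knockdown replicates 1, 2 and 3, against 124, 100 and 85 in control replicates 1, 2 and 3. Scaled, these were 3.93, 2.96 and 2.94 CPM in the knockdown and 3.02, 2.53 and 3.06 CPM in the control. Knockdown replicate 1 was the highest library and the other knockdown libraries lay among the controls. The log2 fold change was 0.19 ± 0.22 (SE; edgeR, unadjusted p = 0.392, adjusted p = 1.00), and 0.04 without knockdown replicate 1. The antisense gene 4731419I09Rik shares 168 exon bases with Efna4, and without a stated strand setting their reads cannot be told apart.

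Efna1 (89271730 to 89280951), whose protein is a ligand of EphA2 and is known from blood vessels and epithelia, was barely detected. It had 15, 16 and 14 counts in knockdown replicates 1, 2 and 3, against 13, 12 and 2 counts in control replicates 1, 2 and 3. In CPM these were 0.345, 0.464 and 0.334 in the knockdown and 0.317, 0.303 and 0.0719 in the control. Every knockdown library was above every control library in CPM, but in FPKM the groups overlapped. The log2 fold change was 0.65 ± 0.53 (SE; 95% interval -0.51 to 1.81; edgeR, unadjusted p = 0.245, adjusted p = 1.00). Without control replicate 3, the shallowest library, it was 0.30. Efna1 and Efna3 were the only members whose groups did not overlap, 2 of 10, where 5.20% of all tested genes did not overlap. Efna1 was 1 of 10 members wholly above the control, beside 2.28% of all genes, and Efna3 1 of 10 wholly below it, beside 2.92%. Their overlap under other scalings and in FPKM was looked at after the data had been seen.

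**Figure D3:**
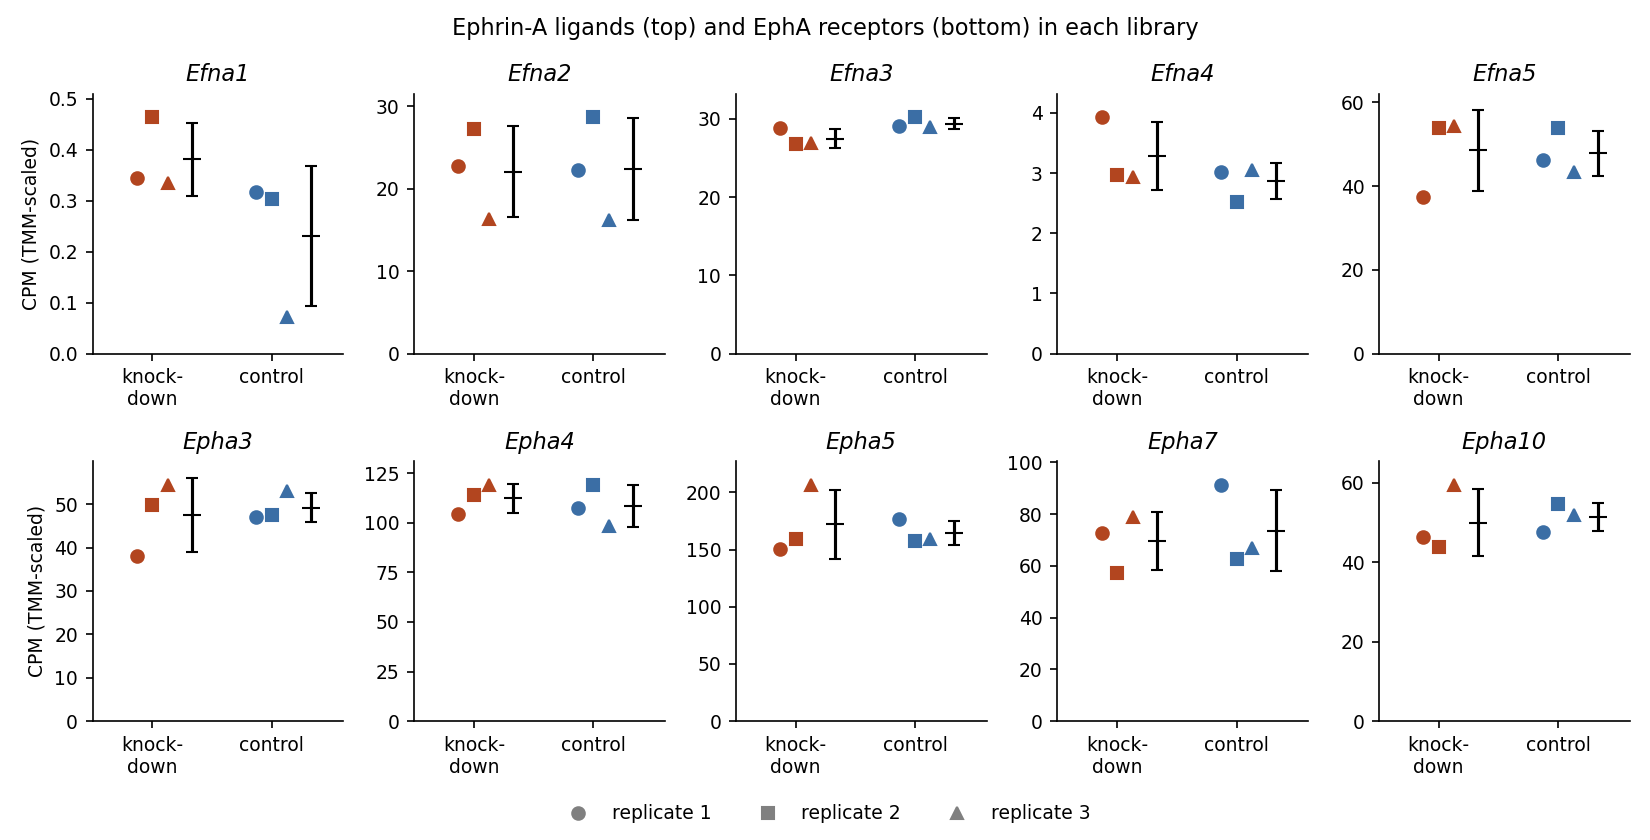
Each panel gives CPM for 1 member, with knockdown libraries left and control libraries right, symbols for replicate numbers, and a bar for the mean and SD (n = 3 each). The groups overlapped in all members but Efna1, where control replicate 3 stood at 0.0719 CPM, and Efna3, where the closest libraries were nearly equal.

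Of the receptors, Epha5 (chromosome 5, 84054761 to 84417818) is a main neuronal receptor of ephrin-A2 and ephrin-A5. It was at 151, 159 and 207 CPM in knockdown replicates 1, 2 and 3, against 177, 158 and 159 CPM in control replicates 1, 2 and 3. Knockdown replicate 3 was the highest library and knockdown replicate 1 the lowest, so the control lay inside the range of the knockdown. The means were 172 ± 30.2 CPM in the knockdown and 165 ± 10.6 CPM in the control (SD, n = 3 each). Its log2 fold change came to 0.07 ± 0.12 (SE; edgeR, unadjusted p = 0.601, adjusted p = 1.00).

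Epha4 (chromosome 1, 77367182 to 77515107), which binds ephrins of both the A and the B class, was at 104, 114 and 119 CPM in knockdown replicates 1, 2 and 3, against 108, 119 and 98.4 CPM in control replicates 1, 2 and 3. The groups overlapped, and all 6 libraries lay within a 1.21-fold range. Its log2 fold change was 0.05 ± 0.10 (SE), with a 95% interval from -0.17 to 0.28 (edgeR, unadjusted p = 0.616, adjusted p = 1.00).

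Epha7 (chromosome 4, 28813066 to 28967503), a receptor that is also made in forms without the kinase domain, had the widest range of the 5 receptors. It was at 72.7, 57.2 and 79.0 CPM in knockdown replicates 1, 2 and 3, against 91.4, 62.6 and 67.1 CPM in control replicates 1, 2 and 3. The highest library was a control and the lowest a knockdown, with the others between them. The log2 fold change was -0.08 ± 0.16 (SE; edgeR, unadjusted p = 0.615, adjusted p = 1.00), and it was 0.11 without control replicate 1. The 3 genes most like it over the 6 libraries, by the same search as for Efna2, were Zfp169 (r = 0.997), Rps6kb1 (0.992) and Chd7 (0.991).

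Epha3 (chromosome 16, 63543532 to 63864175), a high-affinity receptor of ephrin-A5, was at 38.02, 49.9 and 54.5 CPM in knockdown replicates 1, 2 and 3, against 47.1, 47.5 and 53.0 CPM in control replicates 1, 2 and 3. Replicate 3 was highest and replicate 1 lowest in each group, and the groups overlapped. Its log2 fold change was -0.05 ± 0.14 (SE; edgeR, unadjusted p = 0.716, adjusted p = 1.00). Of the 9 members averaging 1 CPM or more, Efna2 and Epha3 were the 2 whose libraries stood in the same order in both groups, a share of 22.2% beside 20.3% of all such genes.

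Epha10 (chromosome 4, 124881530 to 124917801), a receptor without kinase activity, was at 46.3, 44.0 and 59.6 CPM in knockdown replicates 1, 2 and 3, against 47.6, 54.7 and 51.9 CPM in control replicates 1, 2 and 3. The control libraries lay inside the range of the knockdown. Its log2 fold change was -0.04 ± 0.13 (SE; edgeR, unadjusted p = 0.750, adjusted p = 1.00). The antisense gene 1700125G02Rik shares 79 exon bases with Epha10 and had at most 8 counts in a library. In CPM, Epha5, Epha3 and Epha10 were each highest in knockdown replicate 3, as was Efna5 among the ligands. The share of all genes highest in that library was not counted, so this only describes these members.

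The intervals say how large a change these data leave room for. For all 5 receptors the 95% interval stayed inside a 1.5-fold difference up or down, and likewise for Efna2, Efna3 and Efna5. This made 8 of 10 members, beside 65.0% of all tested genes, and 8 of the 9 members averaging 1 CPM or more, beside 78.2% of such genes. Efna4 had an interval within a 2-fold change, from -0.29 to 0.67 on the log2 scale, and that of Efna1 reached beyond it. A p that misses the threshold does not show that the levels were equal.

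**Figure D4:**
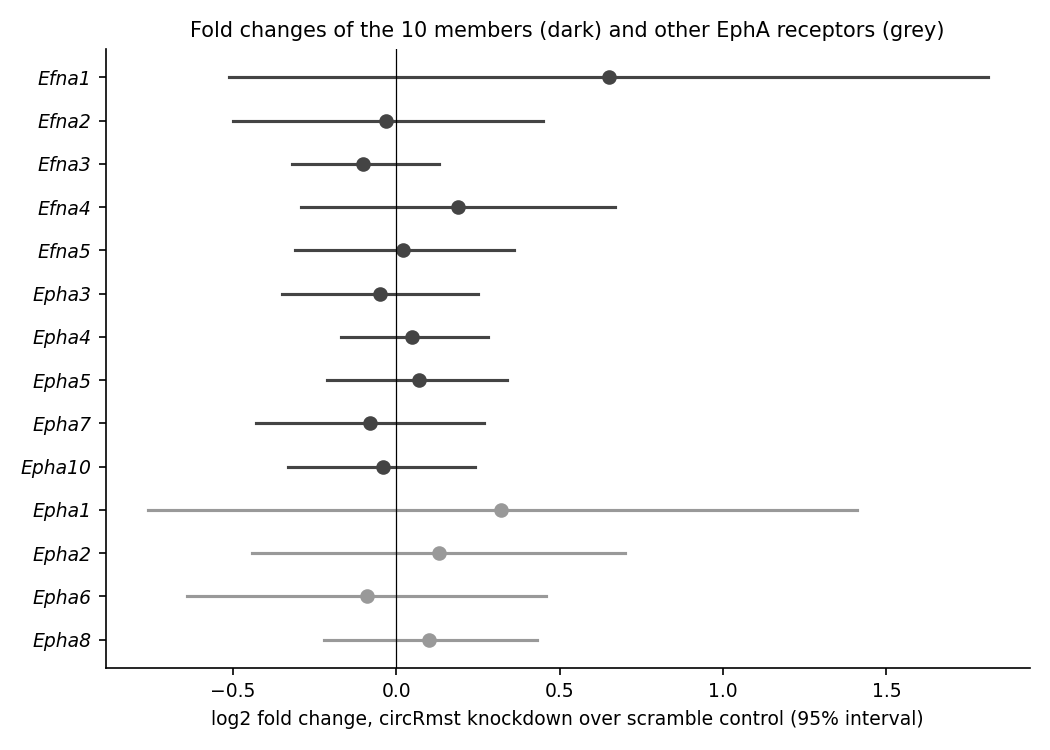
Points give the log2 fold change, knockdown over control, and lines its 95% interval from edgeR, for the 10 members (dark) and the other EphA receptors (grey). All intervals include 0, and those of Efna1 and Epha1, the least abundant, are the widest.

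The other EphA receptors fell into an abundant and a scarce pair. Epha6 and Epha8, both neural receptors, were about as high per length as Epha3, with medians of 4.02 FPKM (2.31 to 5.77) and 4.18 FPKM (3.86 to 5.78) over the 6 libraries. Epha6 had the widest spread of the abundant receptors, with 31.0, 49.6 and 77.6 CPM in knockdown replicates 1, 2 and 3, against 54.2, 60.1 and 54.3 CPM in control replicates 1, 2 and 3. The control libraries lay close together inside the wide range of the knockdown, and the log2 fold change was -0.09 ± 0.25 (SE). Epha8 had 39.3, 50.6 and 39.4 CPM in the knockdown and 35.1, 47.9 and 37.0 CPM in the control, with replicate 2 highest in each group, and a log2 fold change of 0.10 ± 0.15. Epha2 had 0.13 ± 0.26, at 1.27 to 1.77 CPM, and Epha1 had 0.32 ± 0.49, at 6 to 17 counts in a library.

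Genes that act with the ligands and receptors were read from the same fit. Of 50 such genes, the other EphA receptors included, 50 were tested and 0 passed the threshold in either direction in edgeR, and 0 had an unadjusted p under 0.05. Their median log2 fold change was 0.02, and 31 of them were higher and 19 lower than in the control by value, none past the threshold. Of all 17439 tested genes, 8390 were higher and 9049 lower. Among 7 partners of reverse signalling the median was 0.01. Ngfr, the p75 receptor that takes part in ephrin-A signalling in retinal axons, was at 7.92 ± 0.267 CPM in the knockdown and 6.42 ± 1.12 CPM in the control (SD, n = 3 each), or 0.30 ± 0.17 on the log2 scale (SE; edgeR, unadjusted p = 0.105, adjusted p = 1.00). It was the only one of the 50 genes whose groups did not overlap, 2% of them, where 5.20% of all tested genes did not overlap. The Src-family kinase gene Fyn had -0.10 ± 0.09, the GDNF co-receptor gene Gfra1 had -0.10 ± 0.12, and Ntrk2, the gene of the BDNF receptor TrkB, had 0.02 ± 0.12 (SE).

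Among 30 effectors of forward signalling the median log2 fold change was 0.03. Of them 19 lay above and 11 below the control, beside 8390 above and 9049 below of all tested genes. The small GTPase gene Rac1, whose protein drives actin assembly, had 0.13 ± 0.10 (SE), and Cdk5r1, which encodes the p35 activator of Cdk5, had 0.15 ± 0.12. Cdc42, another small GTPase gene and the highest of the effectors at a mean of 120 FPKM, had 0.02 ± 0.09. Anks1, the gene of an adaptor of Eph receptors, had 0.50 ± 0.43 at 0.998 ± 0.265 CPM in the knockdown and 0.691 ± 0.351 CPM in the control. Its deposited FPKM ran the other way, at 7.07 ± 1.24 in the knockdown and 8.42 ± 0.494 in the control, so its direction is uncertain. The count tables hold only 8 to 50 counts per library for Anks1, few for a gene at that FPKM, and may miss some of its reads. Among 9 genes of ephrin-A and EphA turnover the median was 0.02. The matrix protease gene Mmp2 had 0.22 ± 0.13 (SE) and the sheddase gene Adam17 had 0.08 ± 0.13. The phosphatase genes Ptpro, whose product removes phosphate from Eph receptors, and Ptprf had -0.06 ± 0.12 and -0.03 ± 0.09.

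**Figure D5:**
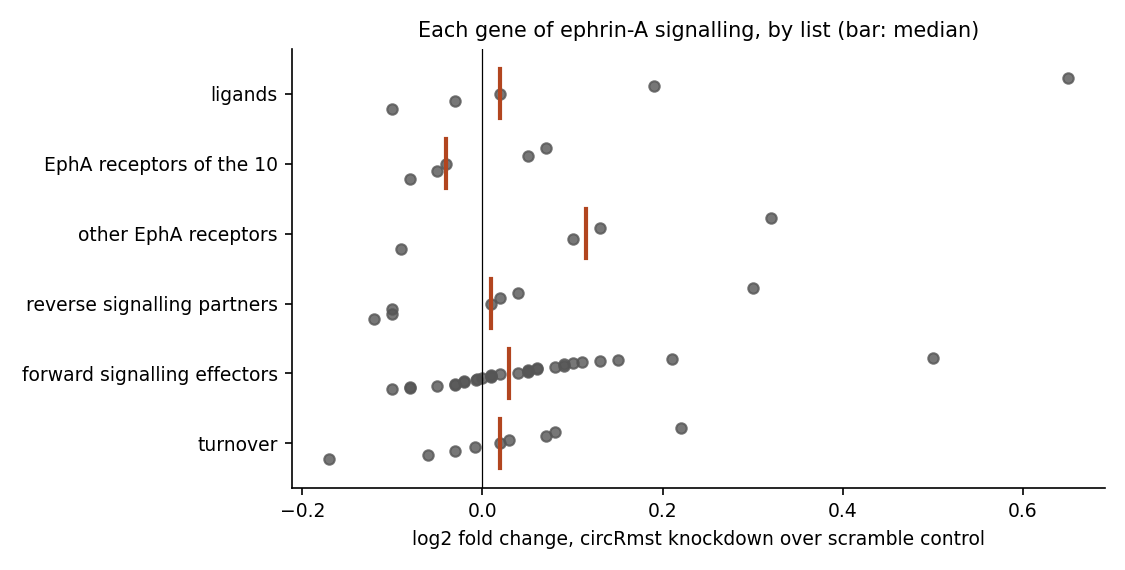
Each point is the log2 fold change, knockdown over control, of 1 gene in 6 lists of ephrin-A signalling, and the bar is the median of the list. The medians lay between -0.04 and 0.12, and the points farthest from 0 were Efna1 (0.65) and Anks1 (0.50), both with few counts; the direction of Anks1 is the opposite in FPKM.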

How the data were processed

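RNA from 3 knockdown and 3 control libraries was depleted of ribosomal RNA and sequenced as pairs of 150 bases from a kit that marks the strand, per the labels' protocols. The deposited count tables hold whole-number counts per gene, 1 library each. The deposited FPKM values are in the Cufflinks layout per the file headers, and Cufflinks 2.2.1 and GRCm38 (mm10) are named in the submitters' processing notes. Aligner, counting tool and strand setting: not given in the sources used here. All libraries entered edgeR 4.0.16 (R 4.3.3): filterByExpr, TMM scaling, quasi-likelihood test on the group alone, Benjamini-Hochberg adjustment over 17439 genes, threshold 0.05. This fit was tested on simulated data. CPM are TMM-scaled, and likeness used log2 CPM with a prior count of 2.

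The members and lists were chosen with earlier results of these data known. Named were all members, the other EphA receptors and, of each other list, up to 3 genes with the smallest p and 2 with the highest mean FPKM; some of these genes are not reported here. The labels mention 3 independent cultures without tying libraries to them, so p-values measure the spread between these libraries. No libraries of a group were duplicates (chi-square over its degrees of freedom at least 12.8). Alternatives were other scalings, filters, DESeq2 1.42.0, limma 3.58.1 (voom, and log2 FPKM with pseudocounts of 0.1 and 1), the replicate number as a block, and each library left out. Depth gives about 4420 to 8657 counts for Epha5 but 2 to 16 for Efna1.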

Additional observations from a re-analysis of the deposited data

How the results depend on the processing

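No member and no other signalling gene passed the threshold under any alternative run, and the smallest unadjusted p of a member was 0.156. Over all genes, edgeR called 11 without the filter on low counts and DESeq2 called 1, against 0 otherwise. Of 167 values of single members under the alternatives, 145 kept their direction and 22 did not, 15 of these with a library left out. Efna1, Efna3 and Efna4 kept theirs throughout. In FPKM, Efna2 had 0.02 and Epha10 had 0.01 under each of the 3 settings, in place of -0.03 and -0.04, and Efna5 had -0.0006271 in limma voom, in place of 0.02. With each library left out in turn, the log2 fold change ran from 0.30 to 0.92 for Efna1, -0.20 to 0.21 for Efna2, -0.13 to -0.06 for Efna3, 0.04 to 0.28 for Efna4, -0.06 to 0.18 for Efna5, -0.15 to 0.09 for Epha3, -0.003 to 0.14 for Epha4, -0.07 to 0.15 for Epha5, -0.17 to 0.11 for Epha7 and -0.18 to 0.04 for Epha10. The cause was not tested. Efna1 fell outside the filter of 1 CPM and the filter on FPKM and has no value there.

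Replicate numbers were not taken as pairs. Deviations of same-numbered libraries from their group means correlated at 0.318, 0.350 and 0.0502 over 14501 genes for numbers 1, 2 and 3. Those of differently numbered libraries correlated at -0.363 to 0.0997. Numbers 1 and 2 thus matched better than any other pairing, but knockdown replicate 3 correlated best with control replicate 1 (0.0908). With the replicate block, 0 genes were called and 258 had an unadjusted p under 0.05, against 191 without it. Efna2 had -0.01 (unadjusted p = 0.897) with the block, and no member was called. Counts of 2 to 16 limit what can be said of Efna1.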
